A study of Mus musculus with 10 samples.

Results

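Liver tumours of mice lacking the mixed-lineage kinase MLK3 were compared with liver tumours of wild-type mice given the same carcinogen. The comparison takes 6 of the 10 libraries of the series: 3 from MLK3-KO mice (KO tumours 1 to 3) and 3 from Wild-type mice (WT tumours 1 to 3), chosen by genotype and treatment as labelled. Of 39056 genes in the count table, 20183 had at least 1 count in these 6 libraries and 15811 had enough counts to be tested. All mice were male C57BL/6 animals killed at 11 months. The tumour-bearing mice had received 1 intraperitoneal injection of diethylnitrosamine (DEN) at 5 µg per g body weight when 2 weeks old. After a pause of 1 week they drank water with 0.05% phenobarbital (PB) to the end. The other 4 libraries are livers of mice on plain water, 2 MLK3-KO (KO livers) and 2 Wild-type (WT livers), and are used here only to set a genotype difference in liver beside that in tumours. The labels do not give the deleted part of the gene, whether any library pools animals, or how many tumours a library represents. They name the tissue as liver tumour, while the extraction text speaks of treated liver, so that surrounding liver may be part of a sample.

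MLK3, encoded by Map3k11, is a kinase of the mixed-lineage family that activates the kinases MKK4 and MKK7 and through them JNK, whose targets include the transcription factor c-Jun. DEN is turned into a DNA-alkylating agent by hepatocytes, and PB promotes the growth of initiated cells through the nuclear receptor CAR, which also induces cytochromes P450 of the Cyp2b and Cyp2c families. A mature hepatocyte runs programmes that tumours often lose: enzymes arranged between portal and central veins, the central ones under Wnt and β-catenin, and in male mice a set of genes driven by pulses of growth hormone through STAT5b.

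Library totals in the tumours ran from 12408749 to 16582080 counts, and 3 counts, the limit taken for a gene without reads, corresponded to between 0.156 and 0.231 CPM over the 10 libraries. Defining hepatocyte transcripts were present in every tumour, albumin (Alb) at 21397, 21993 and 26413 CPM in KO tumours, against 50498, 62170 and 51015 CPM in WT tumours. KO tumour 2 stood apart. The oncofetal transcript Afp had 446, 3.84 and 169 CPM in KO tumours 1, 2 and 3, against 452, 146 and 534 CPM in WT tumours, and the livers held between 0.283 and 6.35 CPM. Gpc3 had 46.9, 0.489 and 48.9 CPM in KO tumours, against 441, 610 and 349 CPM in WT tumours, and the livers held up to 4.96 CPM. By both markers KO tumour 2 was at the level of water-treated liver. Across the genes tested, KO tumour 2 correlated with the livers at 0.939 to 0.945, and with KO tumours 1 and 3 at 0.934 and 0.945 (log2 CPM). KO tumours 1 and 3 correlated with the livers at 0.912 to 0.929. Results are therefore also given without KO tumour 2. Summed T and NK cell markers in KO tumour 2 (54.5 CPM) were also nearer the livers than those of KO tumours 1 and 3. That trait was shared by WT tumour 2 (65.8 CPM, against 156 and 131 CPM in WT tumours 1 and 3). The part of tissue composition in the differences was not tested.

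The targeted transcript did not separate the genotypes. Map3k11 (chromosome 19, 5688742 to 5702865, plus strand, GRCm38) had 10.0, 10.3 and 5.84 CPM in KO tumours, against 12.2, 9.54 and 14.3 CPM in WT tumours. The ranges overlap, and the log2 fold change of -0.46 (SE 0.469) did not pass the test (adjusted p = 0.775). Counts come from the 3′ end of transcripts, so a deletion elsewhere in the gene could leave them in place, and the level checks neither knockout nor labels. Among the other mixed-lineage kinases, Map3k10 had 5.78, 4.05 and 8.44 CPM in KO tumours and 0.104, 4.88 and 6.29 CPM in WT tumours, and Map3k21 had a log2 fold change of 0.68 (SE 0.912). Map3k9, with counts of 0, 0 and 0 in KO tumours and 16, 3 and 0 in WT tumours, was too low to be tested. Of 28 tested members of the MLK and JNK pathway list (kinases, scaffolds, phosphatases and Jun family factors) edgeR called none in either direction, and their median log2 fold change was -0.17, against -0.03 over all genes tested. At an unadjusted p under 0.05 there were 1 higher and 2 lower, DESeq2 and limma each called only Junb, lower, and the median without KO tumour 2 was -0.32. The smallest edgeR adjusted p-values in the list were those of Junb (0.065, its levels are given with the immediate early genes) and of Jun. Jun, which encodes c-Jun, had 35.9, 9.84 and 23.4 CPM in KO tumours and 77.5, 35.2 and 28.3 CPM in WT tumours (adjusted p = 0.29).

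Many liver transcripts separated the tumours of the 2 genotypes. In edgeR's quasi-likelihood model, 514 genes (3.25% of those tested) were higher in KO tumours and 201 (1.27%) were lower at an adjusted p under 0.05. Fold changes were larger upward: 213 of the higher genes exceeded 4-fold and 90 exceeded 16-fold, against 53 and 7 of the lower genes. Of the higher genes 510 had all 3 KO tumours above all 3 WT tumours, as had 12.2% of all genes tested. All 201 lower genes had the KO tumours entirely below, as had 10.9% of all genes tested. KO tumour 2 was the highest of the 3 KO tumours for 380 of the 514 higher genes (73.9%), and for 35.3% of all genes tested. KO tumour 2 was also the lowest of the 3 for 145 of the 201 lower genes, a share that was not computed over all genes tested. Without it 345 genes were higher and 114 lower, of which 339 and 107 were among those called with it. The count of lower genes was also sensitive to single other libraries: it was 110 without KO tumour 3, 91 without WT tumour 2 and 122 without WT tumour 3.

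**Figure D1:**
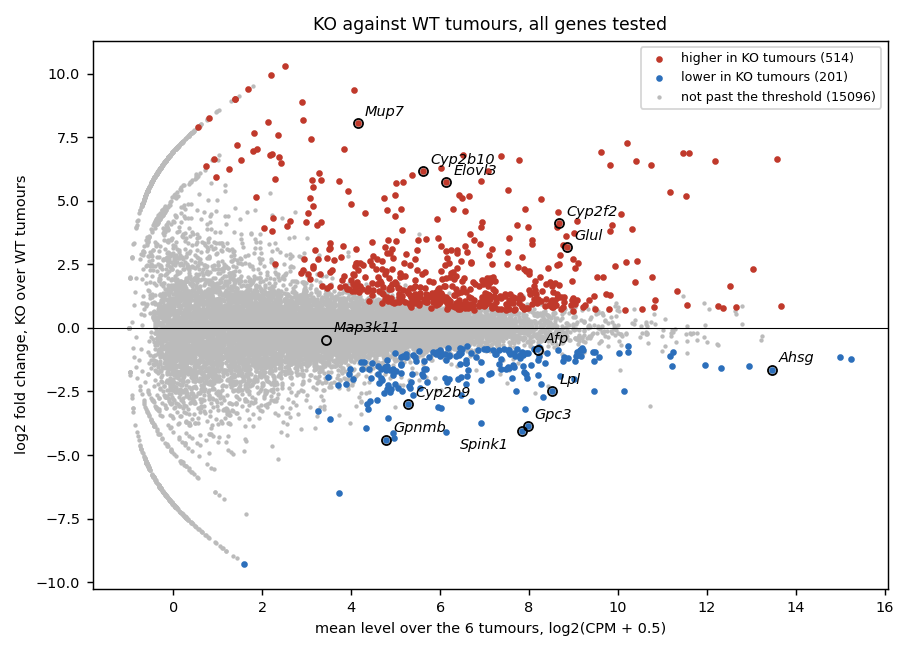
Each point is a gene: the horizontal axis gives its mean level over the 6 tumours as log2(CPM + 0.5), the vertical axis its log2 fold change, KO over WT tumours. Red points (514) are called higher, blue points (201) called lower, and grey points did not pass the test; 90 of the higher and 7 of the lower genes exceed 16-fold, and a few genes of each kind are named.

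Transcripts of male liver made up most of the largest increases: apart from Dct, described further on, the 12 largest that the naming rule took were all Mup loci. Major urinary proteins (Mup), pheromone carriers that male liver secretes in bulk, took 8.50%, 9.74% and 6.38% of all counts in KO tumours, against 0.433%, 0.145% and 0.632% in WT tumours. The KO tumours were all far above the WT tumours and below or beside the livers, where the share was 11.1 ± 2.16% (KO, SD, n = 2) and 13.9 ± 0.601% (WT, SD, n = 2). Of 35 tested Mup genes and pseudogenes 27 were called higher. Their copies are nearly identical in sequence, so reads may be split among them and single members are uncertain. Mup7, with the largest fold change of the Mup loci that reached 10 CPM in KO tumours, had 22.7, 53.3 and 27.1 CPM in KO tumours and 0.313, 0 and 0 CPM in WT tumours, a log2 fold change of 8.06 (SE 0.638, adjusted p = 2.1e-06). Mup19, on chromosome 4 like the rest of the cluster, had 23472, 31678 and 16882 CPM in KO tumours and 408, 146 and 175 CPM in WT tumours (log2 fold change 6.63, SE 0.440). Other Mup loci among the 12 largest increases were Mup22 (7.43), Mup-ps18 (7.27), Mup10 (7.02), Mup17 (6.91), Mup-ps17 (6.89), Mup15 (6.87), Mup1 (6.81), Mup12 (6.77) and Mup-ps21 (6.59), given as log2 fold changes. Mup2 had no count in the 3 WT tumours and a mean of 4.21 CPM in KO tumours, at least 22.3-fold higher when each WT library is set to the limit of 3 counts.

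Outside the Mup cluster the same direction held for other male-biased transcripts. Elovl3, a fatty acid elongase (chromosome 19, 46131897 to 46135694), had 79.5, 192 and 142 CPM in KO tumours, against 2.34, 1.67 and 3.66 CPM in WT tumours. The lowest KO tumour was far above the highest WT tumour, and the log2 fold change was 5.74 (SE 0.371, adjusted p = 3.3e-07). Cyp7b1, an oxysterol hydroxylase, had 180, 216 and 126 CPM in KO tumours, against 3.59, 3.13 and 8.34 CPM in WT tumours. This is a log2 fold change of 5.12 (SE 0.381, adjusted p = 1.1e-06) with no overlap. Hsd3b5, a steroid reductase of male liver, averaged 127 ± 88.1 CPM in KO tumours and 1.58 ± 1.16 CPM in WT tumours (SD, n = 3 each), and KO tumour 2 was the highest at 228 CPM. Of 35 tested members of the male-biased list, 29 were higher and none lower, with a median log2 fold change of 5.11. That list also holds Mup genes (Mup7, Mup10, Mup17, Mup15, Mup1, Mup12, Mup19, Mup11, Mup21, Mup3 and Mup20 among the higher ones). Its count and median are therefore not separate from the Mup cluster. Leaving out KO tumour 2 gave the same count of 29, and a median of 4.73.

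Transcripts that are normally higher in female liver moved the other way in part. Of 30 tested members of that list, 5 were lower (Spink1, Abcd2, Cyp2b9, Cyp2a4 and Lpl) and 1 was higher (Cyp4a10, an ω-hydroxylase, log2 fold change 3.43), with a median of -1.31. Cyp2b9, a P450 of female liver, had 5.09, 5.45 and 15.3 CPM in KO tumours, against 71.2, 70.7 and 62.6 CPM in WT tumours. The groups were well apart (log2 fold change -2.98, SE 0.457, adjusted p = 0.0013). Cyp2a4, a steroid hydroxylase, had 378, 91.1 and 544 CPM in KO tumours and 2228, 1568 and 1923 CPM in WT tumours (log2 fold change -2.50, adjusted p = 0.0059). Abcd2, a peroxisomal transporter of fatty acids, averaged 13 ± 3.14 CPM in KO tumours and 115 ± 43.1 CPM in WT tumours (SD, n = 3 each). When KO tumour 2 was left out, 4 members were lower and none higher.

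Some genes of the growth hormone axis were part of the difference, though its list as a whole did not share their direction. Ghr, the growth hormone receptor (chromosome 15, 3317760 to 3583492), had 320, 574 and 302 CPM in KO tumours, against 90.1, 90.4 and 75.5 CPM in WT tumours. Igf1, the growth factor that the hormone induces in liver, had 491, 922 and 588 CPM in KO tumours, against 127, 109 and 123 CPM in WT tumours. For both, KO tumour 2 was the highest and no KO tumour reached down to the WT range (log2 fold changes 2.22, SE 0.248, and 2.48, SE 0.248). Igfals, whose product carries IGF1 in blood, had a log2 fold change of 2.48 (SE 0.343, adjusted p = 0.00038). These 3 were the higher members of 21 tested in the growth hormone, STAT5 and IGF list, and the insulin receptor Insr was the single lower one (log2 fold change -0.81, SE 0.211), with a list median of -0.28. Of the 21 fold changes 12 were negative. Over all genes tested 3.25% were higher and 1.27% lower. Without KO tumour 2, 3 were higher and 2 lower. In bulk tissue, fewer cells of a type and less RNA per cell cannot be told apart, here and in every comparison that follows.

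**Figure D2:**
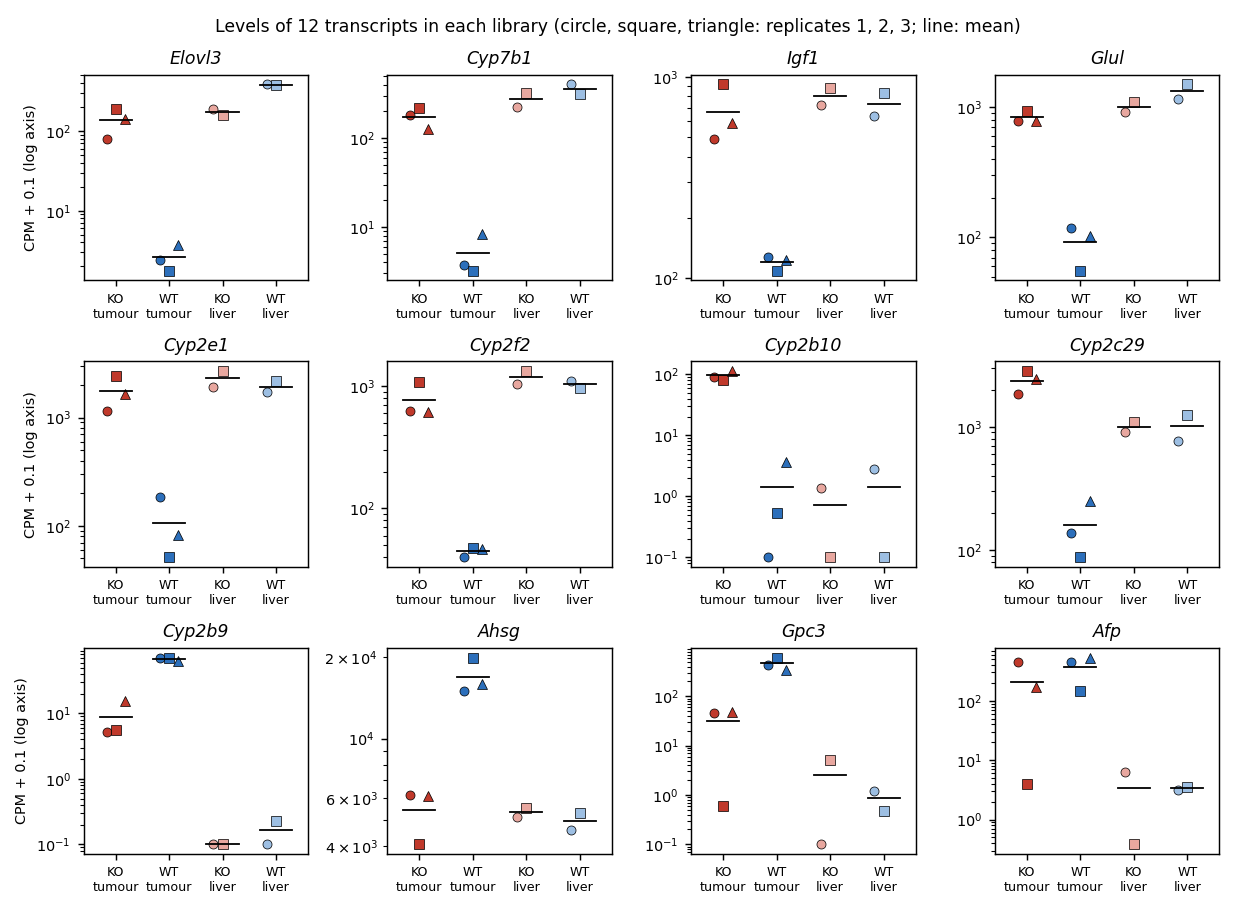
Level of 12 transcripts in each library as CPM + 0.1 on a log axis, for KO tumours, WT tumours, KO livers and WT livers; circles, squares and triangles are replicates 1, 2 and 3 and lines are means. In Elovl3, Cyp7b1, Igf1, Glul, Cyp2e1, Cyp2f2, Cyp2c29 and Cyp2b10 every KO tumour lies above every WT tumour, and in Cyp2b9, Ahsg and Gpc3 below, while Afp overlaps and is lowest in KO tumour 2 among the tumours.

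Many pericentral enzymes, the products of hepatocytes around the central vein, were higher in KO tumours. Glul, glutamine synthetase, the classical pericentral target of β-catenin (chromosome 1, 153899944 to 153909723, plus strand), had 783, 932 and 780 CPM in KO tumours, against 119, 55.5 and 102 CPM in WT tumours. The KO tumours lay close together and far above the WT tumours, with a log2 fold change of 3.18 (SE 0.273, adjusted p = 4.6e-06). Cyp2e1, the P450 that metabolises ethanol and nitrosamines (chromosome 7, 140763739 to 140774987), had 1154, 2424 and 1654 CPM in KO tumours, against 184, 51.0 and 82.4 CPM in WT tumours. Its log2 fold change was 4.04 (SE 0.427, adjusted p = 3.3e-05), with KO tumour 2 the highest. Cyp1a2, a P450 of aromatic amines, had 548, 996 and 827 CPM in KO tumours and 57.8, 29.6 and 158 CPM in WT tumours (log2 fold change 3.27, SE 0.459). The glutamate transporter Slc1a2 averaged 114 ± 25.8 CPM in KO tumours and 5.70 ± 5.34 CPM in WT tumours, and ornithine aminotransferase, Oat, 396 ± 84.1 and 23.9 ± 15.8 CPM in KO and WT tumours (SD, n = 3 each). Of 34 members of the Wnt target and pericentral list 18 were higher and none lower, with a median log2 fold change of 2.54. Leaving out KO tumour 2 gave 16 higher members and a median of 2.11. Feedback targets of the Wnt pathway had low levels, and not all passed the test. Notum, a secreted inhibitor of Wnt ligands, had 8.79, 16.3 and 22.1 CPM in KO tumours, against 2.92, 3.64 and 0.577 CPM in WT tumours, and was higher (log2 fold change 2.72, SE 0.624, adjusted p = 0.0189), though not without KO tumour 2 (2.70, adjusted p = 0.0594). The Wnt target Tbx3, a T-box factor, was higher with and without that library (2.54, SE 0.440, adjusted p = 0.0026, and 2.00, adjusted p = 0.0152). Axin2 and Lgr5 had positive fold changes that did not pass. Axin2 had 3.93, 5.65 and 1.59 CPM in KO tumours and 1.25, 0.0728 and 0 CPM in WT tumours (log2 fold change 3.02, adjusted p = 0.216). The receptor Lgr5 had 7.09, 14.9 and 12.4 CPM in KO tumours and 6.09, 6.92 and 2.57 CPM in WT tumours (log2 fold change 1.14, adjusted p = 0.415). In tumours these lower counts leave wide errors (SE 1.18 for Axin2, 0.611 for Lgr5), so a difference of several fold could be missed, and Axin2 passed only without WT tumour 1 (adjusted p = 0.0183).

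The proximal promoters of 4 of these pericentral genes are shown because the letters CTTTGA, the core that TCF and LEF factors bind, were searched in them. The windows run from 250 bases before to 50 bases after the RefSeq transcript start on GRCm38.p6: Glul at chr1:153899679-153899978 (plus strand), Cyp2e1 at chr7:140763569-140763868 (plus strand), Cyp1a2 at chr9:57683606-57683905 (minus strand) and Slc1a2 at chr2:102706188-102706487 (plus strand). Each is printed 5′ to 3′ on the gene's strand, and capitals mark CTTTGA or its reverse complement TCAAAG.
Glul: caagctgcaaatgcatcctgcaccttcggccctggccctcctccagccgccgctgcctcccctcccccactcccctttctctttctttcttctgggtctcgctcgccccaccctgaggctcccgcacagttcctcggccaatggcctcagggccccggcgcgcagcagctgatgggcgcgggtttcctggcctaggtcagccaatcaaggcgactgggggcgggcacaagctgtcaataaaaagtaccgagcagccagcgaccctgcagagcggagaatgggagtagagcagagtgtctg
Cyp2e1: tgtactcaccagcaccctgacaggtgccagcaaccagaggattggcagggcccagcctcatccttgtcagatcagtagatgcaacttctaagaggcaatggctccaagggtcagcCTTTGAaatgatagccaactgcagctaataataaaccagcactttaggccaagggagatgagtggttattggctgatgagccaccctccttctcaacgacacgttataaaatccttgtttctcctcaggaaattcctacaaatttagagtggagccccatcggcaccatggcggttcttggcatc
Cyp1a2: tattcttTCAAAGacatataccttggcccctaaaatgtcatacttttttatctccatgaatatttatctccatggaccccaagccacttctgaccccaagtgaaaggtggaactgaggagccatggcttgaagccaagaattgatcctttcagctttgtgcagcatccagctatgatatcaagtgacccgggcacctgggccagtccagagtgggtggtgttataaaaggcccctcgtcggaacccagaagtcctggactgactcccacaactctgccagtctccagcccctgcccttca
Slc1a2: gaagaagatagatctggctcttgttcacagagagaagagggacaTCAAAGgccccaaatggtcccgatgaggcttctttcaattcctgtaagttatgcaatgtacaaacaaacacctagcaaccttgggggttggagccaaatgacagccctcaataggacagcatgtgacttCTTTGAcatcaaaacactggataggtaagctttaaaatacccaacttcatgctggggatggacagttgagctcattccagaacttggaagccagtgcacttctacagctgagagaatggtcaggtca
Of these, Cyp2e1 and Cyp1a2 held 1 match, Slc1a2 held 2 and Glul held none. A match on either strand was present in 5257 of 32851 promoters in the table (16.0%) and in 9 of 30 promoters of the Wnt target and pericentral list (30.0%). Among list genes higher in KO tumours, 6 of the 12 with a promoter in the table held one in at least 1 promoter: Aldh1a1, Cyp1a2, Cyp2c29, Cyp2e1, Lect2 and Slc1a2. A match describes the letters in a window and is no binding site.

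Some periportal enzymes, made around the portal vein, were higher as well. Cyp2f2, a periportal P450, had 622, 1073 and 611 CPM in KO tumours, against 39.6, 47.6 and 46.3 CPM in WT tumours. The WT tumours were close together and every KO tumour was far above them (log2 fold change 4.11, SE 0.265, adjusted p = 3.3e-07). G6pc, the phosphatase that releases glucose, had 110, 114 and 148 CPM in KO tumours, against 12.9, 12 and 20.7 CPM in WT tumours (log2 fold change 3.03, SE 0.281). Urea cycle transcripts showed smaller differences, with log2 fold changes of 1.67 for Ass1, 1.35 for Otc and 1.26 for Asl. In all, 11 of 29 members were higher and 3 lower (Hsd17b6, Aldh1b1 and Hsd17b13, at -1.63, -1.40 and -1.16), with a median of 0.70. When KO tumour 2 was left out, 9 were higher and 3 lower.

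Of 36 tested enzymes of amino acid breakdown 16 were higher and none lower, with a median log2 fold change of 0.75. Prodh, proline dehydrogenase, had 42.9, 60.7 and 50.0 CPM in KO tumours, against 3.59, 2.40 and 7.96 CPM in WT tumours. Gnmt, which disposes of methyl groups by methylating glycine, had 1194, 2032 and 1704 CPM in KO tumours, against 344, 199 and 362 CPM in WT tumours. Bhmt, which remethylates homocysteine with betaine, had 653, 676 and 400 CPM in KO tumours, against 92.1, 111 and 131 CPM in WT tumours. None of these 3 overlapped between genotypes, at log2 fold changes of 3.46 (SE 0.408), 2.45 (SE 0.278) and 2.37 (SE 0.242). Of all genes tested 12.2% had every KO tumour above every WT tumour, and 3.25% were called higher. Without KO tumour 2, 10 members were called higher, with a median of 0.69.

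Targets of CAR, the receptor activated by PB, differed strongly in a subset. Cyp2b10, the classical CAR target (chromosome 7, 25897620 to 25926624), had 91.3, 81.3 and 115 CPM in KO tumours, against 0, 0.437 and 3.59 CPM in WT tumours. All KO tumours were high and all WT tumours near the level of the water-treated livers (1.26 and 0 CPM in KO livers, 2.70 and 0 CPM in WT livers), although both genotypes were labelled as given PB. The log2 fold change was 6.17 (SE 1.17, adjusted p = 0.0054), and DESeq2 gave an adjusted p of 0.0921. Cyp2c29, Cyp2c37 and Cyp2c54, P450s of the Cyp2c cluster on chromosome 19 whose related sequences may share reads, had log2 fold changes of 3.90, 5.06 and 5.79. Cyp2c29 had 1830, 2845 and 2424 CPM in KO tumours and 138, 87.3 and 252 CPM in WT tumours, and was above both liver groups in the KO tumours. Cyp2b10 was above them too, while some other members were not clearly so. Cyp2c54 averaged 236 CPM in KO tumours, 211 CPM in KO livers and 230 CPM in WT livers. Cyp1a2, also in this list, averaged 790, 872 and 855 CPM in the same order. Cyp2c37 had 422, 748 and 617 CPM in KO tumours and between 314 and 574 CPM in the livers, which overlap. Of 45 tested members of the list, 17 were higher and 1, Cyp2b9, was lower, with a median of 1.01. With KO tumour 2 left out, 12 were higher and 1 lower. Cyp2c55, another CAR target, had 6.71, 11.9 and 14.8 CPM in KO tumours and 2.60, 0.146 and 0 CPM in WT tumours, and did not pass (adjusted p = 0.35).

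Many conjugating and hydrolysing enzymes and transporters were higher too. Sult2a8, a hepatic sulfotransferase, had 164, 224 and 156 CPM in KO tumours, against 7.5, 7.5 and 7.31 CPM in WT tumours. The WT tumours were nearly equal, all KO tumours were far above them, and the log2 fold change was 4.61 (SE 0.234, adjusted p = 8.2e-08). The carboxylesterase Ces3a had 564, 1074 and 587 CPM in KO tumours and 65.1, 14.8 and 62.0 CPM in WT tumours, and the glycosyltransferase Ugt3a2 had 51.3, 116 and 70.6 CPM in KO tumours and 10.2, 8.30 and 10.0 CPM in WT tumours. Of 28 tested UGT, SULT and CES enzymes, 16 were higher and 1, the carboxylesterase Ces2e (log2 fold change -1.28), was lower, with a median of 1.38. In the bile acid list 14 of 28 were higher and none lower (median 0.77). Some of the 14 are also counted in lists above: Slco1a1 and Cyp7b1 as male-biased, Cyp7a1, Slco1b2 and Cyp27a1 as pericentral, and Slco1a4 as a CAR target. Ces2a, Ugt2b34 and Ugt2b36 are likewise in both the enzyme and the CAR list. They included the uptake transporter Slco1b2, with 1137, 2401 and 1516 CPM in KO tumours and 173, 91.2 and 101 CPM in WT tumours, and the sterol hydroxylase Cyp27a1, with 123, 246 and 160 CPM in KO tumours and 31.4, 28.0 and 31.4 CPM in WT tumours. The bile salt transporter Slc10a1 averaged 170 ± 65.1 CPM in KO tumours and 18.4 ± 7.37 CPM in WT tumours (SD, n = 3 each). When KO tumour 2 was left out, the counts were 12 higher and 1 lower for the enzymes, and 9 higher for the bile acid list. Targets of NRF2, the oxidant-sensing factor, did not share one direction: Gsta2 (2.24) and Me1 (2.17) were higher, Cbr3 (-3.11) and Srxn1 (-1.47) were lower, and the median of 29 was -0.23. Without KO tumour 2, 1 was higher and 2 lower. Among all genes tested, 3.25% were higher and 1.27% lower with every library in.

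**Figure D3:**
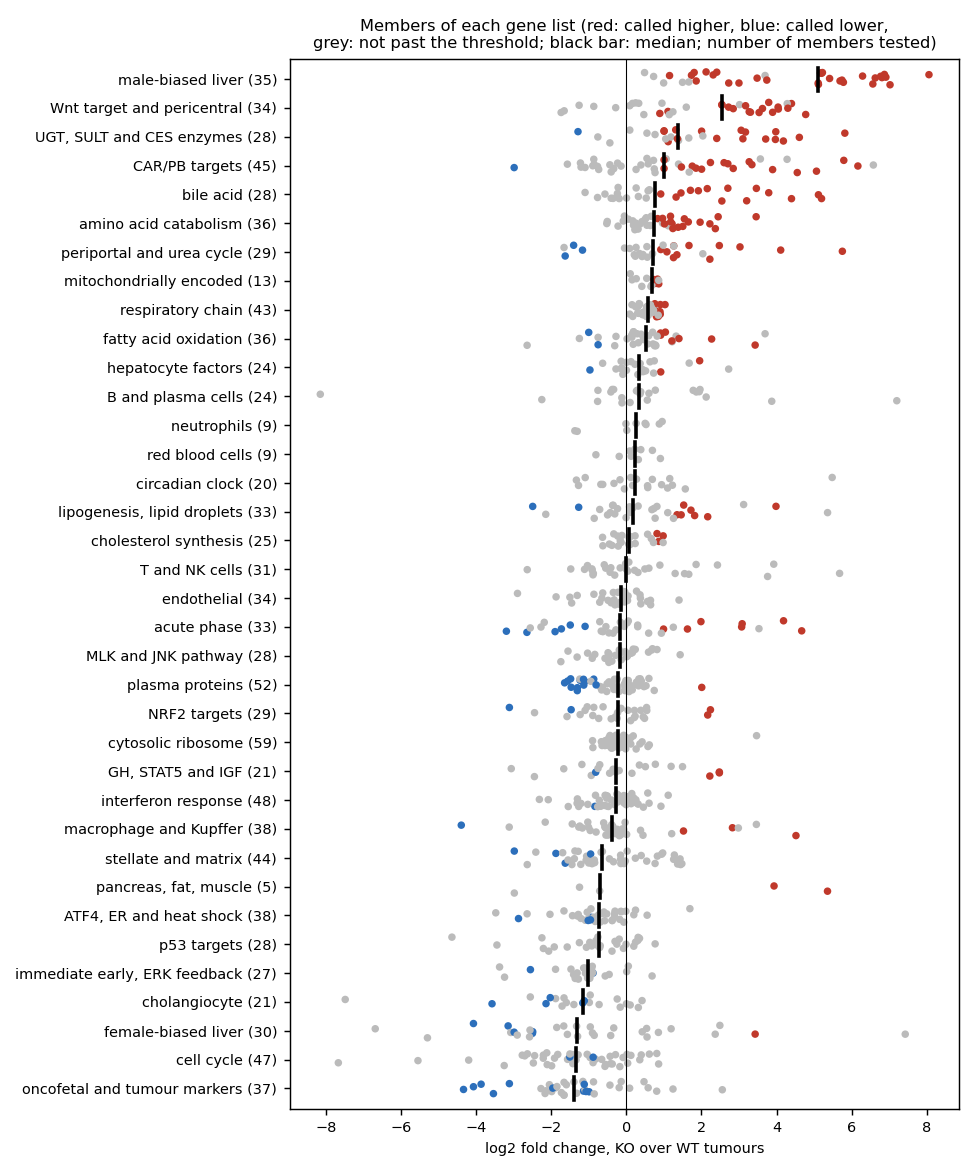
Log2 fold change, KO over WT tumours, of each tested member of 36 gene lists, ordered by list median (black bar), with the number of tested members in brackets; red members are called higher, blue called lower and grey not called. The male-biased list has the highest median (5.11) and the oncofetal and tumour marker list the lowest (-1.39). For scale, 3.25% of all genes tested were called higher and 1.27% lower.

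Energy metabolism shifted by smaller amounts. Of 43 nuclear genes of the respiratory chain 10 were higher and none lower, and all 43 had a positive log2 fold change, with a median of 0.58. The complex subunits Ndufa4, Ndufb5 and Cox7a2 had log2 fold changes of 0.91, 0.90 and 0.85. Of the 13 transcripts made in mitochondria 5 were higher, among them mt-Co2 (0.86), mt-Co3 (0.85) and mt-Cytb (0.83), and the median was 0.68. Mitochondrial transcripts took 7.24 ± 1.05% of counts in KO tumours and 4.69 ± 0.578% in WT tumours (SD, n = 3 each). With KO tumour 2 left out, 5 nuclear and 1 mitochondrial gene were called, with medians of 0.47 and 0.57. In fatty acid oxidation 7 of 36 members were higher and 2 lower (median 0.51): Acsl1, which activates fatty acids (1.40), and Cpt2, a carnitine transferase of the inner membrane (1.04), were higher, whereas Cpt1a, the entry enzyme of the outer membrane (-1.0), and Bdh1, a ketone body enzyme (-0.75), were lower. When KO tumour 2 was left out, 2 were higher and 2 lower, with a median of 0.26.

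Genes of fat synthesis and storage split. Thrsp, a regulator of lipogenesis, had 522, 395 and 511 CPM in KO tumours, against 19.0, 20.8 and 50.4 CPM in WT tumours, with no overlap (log2 fold change 3.99, SE 0.394, adjusted p = 1.9e-05). Fatty acid synthase, Fasn, had 660, 468 and 562 CPM in KO tumours and 195, 189 and 279 CPM in WT tumours (log2 fold change 1.35, SE 0.223). Lpl, lipoprotein lipase, an enzyme of fetal rather than adult hepatocytes, had 185, 45.5 and 100 CPM in KO tumours, against 536, 675 and 646 CPM in WT tumours. It was lower without overlap (log2 fold change -2.49, SE 0.365, adjusted p = 0.00064), as was the desaturase Fads2 (-1.27). In total 7 of 33 members were higher and 2 lower, with a median of 0.18. Without KO tumour 2 the counts were again 7 and 2, and the median was -0.05. In cholesterol synthesis 3 of 25 were higher (Insig1 0.98, Ebp 0.87, Acat2 0.82), none was lower and the median was 0.08. Without KO tumour 2 a single member was higher.

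Secreted plasma proteins were more often lower. Ahsg, fetuin-A (chromosome 16, 22891277 to 22899449), had 6155, 4056 and 6112 CPM in KO tumours, against 15008, 19935 and 15957 CPM in WT tumours. Apoa1, the main protein of high-density lipoprotein, had 4374, 3458 and 4695 CPM in KO tumours, against 9705, 13958 and 11293 CPM in WT tumours. Both were lower in every KO tumour, at log2 fold changes of -1.64 (SE 0.219, adjusted p = 0.00028) and -1.48 (SE 0.210, adjusted p = 0.00048), and albumin, Alb, was lower by a log2 fold change of -1.23 (SE 0.197, adjusted p = 0.0014). For these genes the KO tumours were near the livers and the WT tumours above them. KO and WT livers averaged 5322 and 4936 CPM for Ahsg and 4710 and 3791 CPM for Apoa1. Alb took 2.39% of counts in KO tumours, 5.91% in WT tumours, 2.54% in KO livers and 2.14% in WT livers. The protease inhibitor Serpina1b, which overlaps Serpina1d on the same strand and is uncertain for that reason, had a log2 fold change of -1.47. Of 52 tested members 12 were lower and 1, complement C9 (2.01), was higher, with a median of -0.23. Acute phase genes divided into 7 higher and 6 lower of 33 (median -0.16): Orm1, orosomucoid, had 1695, 721 and 1133 CPM in KO tumours and 341, 191 and 363 CPM in WT tumours, whereas ceruloplasmin, Cp, had 1360, 837 and 1540 CPM in KO tumours and 2939, 3877 and 3684 CPM in WT tumours. The protease inhibitor Serpina3k, which overlaps Serpina3m on the same strand and is uncertain likewise, was higher (1.63). With KO tumour 2 left out, plasma proteins had 1 higher and 11 lower members and acute phase genes 8 and 5, with an acute phase median of 0.06. CPM are shares of a library, so Mup and Alb counts, the first higher and the second lower in KO tumours, enter every other value through the library scaling. The median log2 fold change of all genes was -0.03 with TMM scaling, -0.04 with RLE scaling and -0.03 with upper quartile scaling.

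Of 24 hepatocyte transcription factors 3 were called, 2 higher and 1 lower, against 3.25% higher and 1.27% lower of all genes tested. Onecut2 (log2 fold change 1.95, SE 0.485) and the bile acid receptor Nr1h4 (0.92, SE 0.234) were higher and Foxa3 (-0.97, SE 0.259) was lower, with a median of 0.34. All 3 calls ended without KO tumour 2, where the median was 0.18. Onecut2 had 171, 294 and 195 CPM in KO tumours, against 56.0, 12.5 and 102 CPM in WT tumours, where replicate 2 was low. Of 20 clock genes edgeR called none (median 0.22, and 0.14 without KO tumour 2), with 6 higher and 1 lower at an unadjusted p under 0.05. DESeq2 called Bhlhe41 and Nfil3 higher, and limma none. The nearest in edgeR was Nfil3 at 10.7, 13.8 and 11.2 CPM in KO tumours and 3.33, 2.11 and 6.54 CPM in WT tumours (adjusted p = 0.054), which passed under 7 of 20 alternatives, DESeq2 (adjusted p = 0.0222) among them, and not without KO tumour 2 (adjusted p = 0.177). No gene of 59 for the cytosolic ribosome was called by edgeR, with a median of -0.23 and of -0.06 without KO tumour 2. There 4 were lower at an unadjusted p under 0.05, and DESeq2 and limma each called Rpl4 lower.

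**Figure D4:**
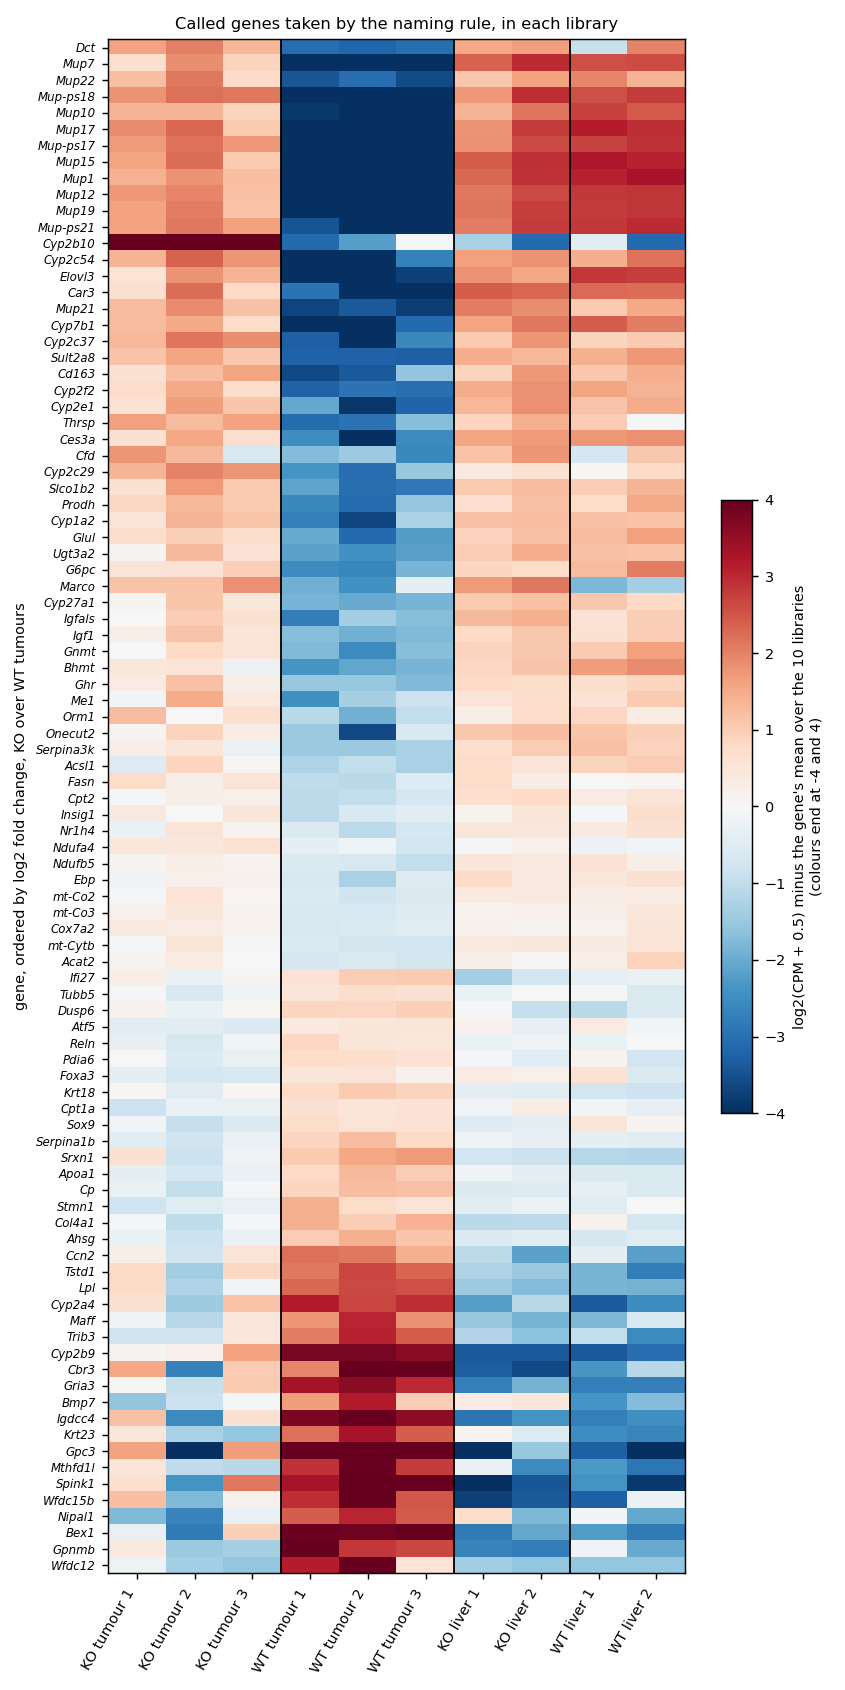
Colour gives log2(CPM + 0.5) of a gene in a library minus that gene's mean over the 10 libraries, for the called genes that the naming rule took, ordered by log2 fold change, KO over WT tumours, with KO tumours 1 to 3, WT tumours 1 to 3 and then KO and WT livers as columns. In most of the upper genes the KO tumours carry the colour of the livers, Cyp2b10 being high in KO tumours alone, and in the lower genes KO tumour 2 is often the palest or bluest of the KO tumours.

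Tumour and fetal liver markers were lower in KO tumours where they were called, but unevenly. Of 37 tested members edgeR called 10 lower and none higher, with a median log2 fold change of -1.39. DESeq2 called 6 lower (Anxa5, Igdcc4, Krt18, Krt8, S100a11 and Sox9), and did not call Gpc3, Bex1, Spink1 or Cbr3. With limma 14 were lower, Gpc3, Bex1, Spink1 and Cbr3 among them. Gpc3, a cell surface proteoglycan of liver cancer whose values are given above, had a log2 fold change of -3.86 (SE 1.04) that passed narrowly (adjusted p = 0.0484). Afp did not pass (-0.87, SE 0.967, adjusted p = 0.806, and 0.00574 without a filter on low counts): KO tumour 1 (446 CPM) was as high as WT tumour 1 (452 CPM). Bex1, a small adaptor protein, had 2.39, 0 and 6.35 CPM in KO tumours, against 53.3, 52.4 and 70.4 CPM in WT tumours (log2 fold change -4.33, SE 0.941). Spink1, a trypsin inhibitor, had 19.9, 1.95 and 55.1 CPM in KO tumours and 126, 858 and 306 CPM in WT tumours, with WT tumour 2 far above the rest. The receptor-like Igdcc4 had 7.94, 0.140 and 5.19 CPM in KO tumours and 50.3, 58.8 and 44.5 CPM in WT tumours, and the carbonyl reductase Cbr3 22.2, 0.698 and 15.2 CPM in KO tumours and 29.8, 153 and 146 CPM in WT tumours. In each of these 5 called genes (Gpc3, Bex1, Spink1, Igdcc4 and Cbr3) KO tumour 2 was the lowest tumour. Without it 9 members were lower, with a median of -0.97, and Gpc3 had a log2 fold change of -3.28 (adjusted p = 0.0307). Sox9, a factor of progenitor and duct cells, and the keratin Krt18 had log2 fold changes of -1.12 and -0.99.

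Most proliferation transcripts, Mki67 and Top2a among them, did not pass the test. Mki67 had 0.231, 0.698 and 4.04 CPM in KO tumours and 10.2, 7.35 and 4.11 CPM in WT tumours, a log2 fold change of -2.12 (SE 1.25, adjusted p = 0.48). Top2a had 15.9, 0.977 and 10.2 CPM in KO tumours and 38.6, 8.37 and 18.8 CPM in WT tumours, which overlap (-1.28, SE 0.888, adjusted p = 0.58). Of 47 tested cell cycle genes 2 were lower, Stmn1, a microtubule destabiliser (-1.50, SE 0.337), and the tubulin Tubb5 (-0.88, SE 0.214), and neither was called without KO tumour 2, at log2 fold changes of -1.51 (adjusted p = 0.0644) and -0.73 (adjusted p = 0.104). The list median was -1.34, with 39 of the 47 fold changes negative, and -0.80 without KO tumour 2. The share called lower over all genes tested was 1.27%. For 28 p53 targets the median was -0.73. Of these edgeR called none, with 9 lower and none higher at an unadjusted p under 0.05, while DESeq2 called 3 lower (Btg2, Cdkn1a and Mdm2) and limma 5 (those 3, Phlda3 and Psrc1). Cdkn1a, a cell cycle inhibitor, had 18.7, 5.45 and 10.9 CPM in KO tumours and 33.5, 93.6 and 38.7 CPM in WT tumours (edgeR adjusted p = 0.0596). It passed under 9 of 20 alternatives, with DESeq2 at an adjusted p of 0.00926, and did not without KO tumour 2 (adjusted p = 0.24).

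Immediate early and stress transcripts had negative medians. Of 27 immediate early and ERK feedback genes 2 were lower, with a median of -1.03, while 1.27% of all genes tested were lower. Maff, a small Maf factor, had 7.63, 3.56 and 11.8 CPM in KO tumours, against 30.1, 73.3 and 31.6 CPM in WT tumours, a log2 fold change of -2.55 (SE 0.522, adjusted p = 0.0091), and the ERK phosphatase Dusp6 was lower by a small margin (-0.88, adjusted p = 0.049). Junb, a partner of c-Jun in AP-1, had 116, 63.0 and 128 CPM in KO tumours and 196, 196 and 181 CPM in WT tumours and just missed the threshold in edgeR (adjusted p = 0.065). It passed as lower under 7 of 20 alternatives, DESeq2 (adjusted p = 0.0223) and limma (adjusted p = 0.0305) among them, and not without KO tumour 2 (adjusted p = 0.211). In the list of ATF4, endoplasmic reticulum and heat shock genes 4 of 38 were lower (median -0.72). Trib3, a pseudokinase induced by ATF4, had 17.1, 17.2 and 40.2 CPM in KO tumours, against 124, 258 and 161 CPM in WT tumours, without overlap (log2 fold change -2.87, SE 0.440, adjusted p = 0.00098). The others were the amino acid transporter subunit Slc3a2 (-1.01), the disulfide isomerase Pdia6 (-0.95) and the factor Atf5 (-0.93). When KO tumour 2 was left out, 1 immediate early gene and 2 stress genes were lower, with list medians of -0.77 and -0.50.

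Markers of cells other than hepatocytes differed in a few genes. Among 38 macrophage markers, the scavenger receptors Cd163 and Marco and the folate receptor Folr2, all of resident macrophages, were higher and Gpnmb was lower. Cd163 had 9.63, 15.2 and 19.5 CPM in KO tumours, against 0.0521, 0.146 and 1.73 CPM in WT tumours, a log2 fold change of 4.52 (SE 0.860, adjusted p = 0.0054). Marco had 32.1, 31.6 and 51.1 CPM in KO tumours, against 3.33, 2.26 and 10.6 CPM in WT tumours, a log2 fold change of 2.83 (SE 0.483, adjusted p = 0.0025). In the livers it had 47.4 and 62.4 CPM in KO livers and 3.71 and 5.24 CPM in WT livers, which did not pass (log2 fold change 3.62, SE 0.612, adjusted p = 0.121), and the genotype differences in tumours and liver were not told apart by the interaction (adjusted p = 0.735). Folr2 averaged 22.3 ± 6.37 CPM in KO tumours and 7.76 ± 3.41 CPM in WT tumours (SD, n = 3 each). Gpnmb, a glycoprotein of lipid-laden macrophages, had 5.16, 1.05 and 1.23 CPM in KO tumours, against 98.2, 30.1 and 27.3 CPM in WT tumours, a log2 fold change of -4.39 (SE 0.764, adjusted p = 0.0028). The list as a whole had a median of -0.38 and summed to between 1266 and 2007 CPM in KO tumours, against between 1626 and 2530 CPM in WT tumours, so the level of the list overlapped while single markers did not. Without KO tumour 2, 2 markers were higher and 1 lower, with a median of -0.14.

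Duct and matrix markers were lower where called. Of 21 cholangiocyte markers 5 were lower (Krt23, Bicc1, Tstd1, Cdh1 and Sox9; median -1.16), and the list summed to between 2763 and 3983 CPM in KO tumours, against between 4971 and 5697 CPM in WT tumours. The defining duct keratins Krt7 and Krt19 were at or under 1.44 CPM in every tumour. Krt23 had 3.78, 0.768 and 0.577 CPM in KO tumours, against 14.1, 30.7 and 16.3 CPM in WT tumours, and the cadherin Cdh1, also made by hepatocytes, 336, 150 and 327 CPM in KO tumours, against 579, 615 and 620 CPM in WT tumours. Tstd1, which overlaps Usf1 on the same strand and may share its reads, had a log2 fold change of -2.02, and Bicc1 -2.14. Of 44 stellate cell and matrix markers 4 were lower, the smooth muscle actin Acta2 (-2.98), the matricellular protein Ccn2 (-1.87), the basement membrane collagen Col4a1 (-1.63) and the glycoprotein Reln (-0.95), with a list median of -0.65. Of all genes tested 1.27% were lower. With KO tumour 2 left out, 2 duct markers were lower, and 1 matrix marker was lower and 1 higher, with a matrix median of -0.28.

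By edgeR no marker was called among 31 for T and NK cells (median 0.00), 24 for B and plasma cells (0.33), 9 for neutrophils (0.26), 34 for endothelium (-0.13) or 9 for red blood cells (0.23). Their medians without KO tumour 2 were 0.25, 0.38, 0.55, -0.06 and -0.01 in that order. At an unadjusted p under 0.05 there were 3 B and plasma cell and 3 endothelial markers and none in the other lists. DESeq2 called none of these markers, and limma called Ighg3 and Esm1 lower. Ccl5, a chemokine of T and NK cells, had 7.40, 0.489 and 11.6 CPM in KO tumours and 26.8, 6.70 and 20.8 CPM in WT tumours. Summed T and NK markers were 127, 54.5 and 180 CPM in KO tumours and 156, 65.8 and 131 CPM in WT tumours, so replicate 2 was the lowest in both genotypes. Endothelial markers summed to between 844 and 994 CPM in KO tumours and between 854 and 1079 CPM in WT tumours. Among 48 interferon response genes only Ifi27 was lower (-0.84, SE 0.225, adjusted p = 0.047, list median -0.28), while 1.27% of all genes tested were lower. Ifi27 was not called without KO tumour 2, where the median was -0.19. Most of 20 markers of pancreas, fat and muscle were too low to test. Of the 5 that were tested, Car3, a carbonic anhydrase that male liver also makes, had 2589, 7944 and 2932 CPM in KO tumours and 214, 38.0 and 76.3 CPM in WT tumours, and the complement factor Cfd was higher at low level (3.93, adjusted p = 0.043).

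**Figure D5:**
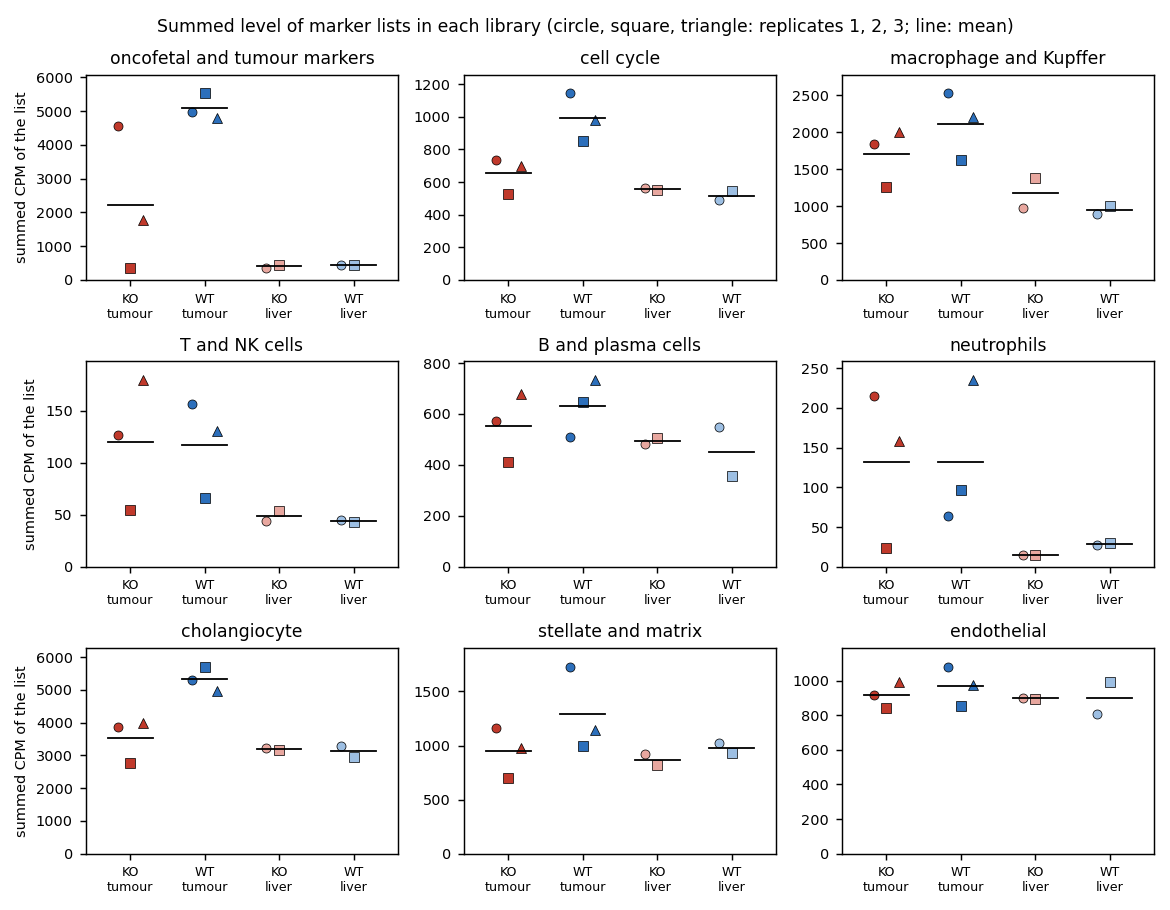
Summed CPM of all members of 9 marker lists in the count table, tested or not, in each library, for KO tumours, WT tumours, KO livers and WT livers; circles, squares and triangles are replicates 1, 2 and 3, and lines are means. Oncofetal and tumour markers reach 4552 CPM in KO tumour 1 but 351 CPM in KO tumour 2, just under the lowest liver (354 CPM), while endothelial markers overlap between all groups.

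Outside these lists, several of the largest changes lie in genes of varied function. Dct, an enzyme of melanin synthesis, had 13.3, 17.8 and 10.9 CPM in KO tumours, against 0.0521, 0 and 0.0642 CPM in WT tumours (adjusted p = 0.00014). The WT values are 2 counts in all, against 579 counts in KO tumours, a ratio of 341 with an exact 95% counting interval of 94 to 2820, so its fitted log2 fold change of 8.16 depends on the prior count. Its gene overlaps 4930435M08Rik on the other strand. Among the 12 largest decreases, Wfdc12 and Wfdc15b, small proteins with whey acidic protein domains, had log2 fold changes of -6.49 and -4.10. Both rested on uneven WT tumours: Wfdc12 had 0.771, 0.0698 and 0 CPM in KO tumours and 12.3, 62.0 and 1.60 CPM in WT tumours. More even were Nipal1, a magnesium transporter (-4.12), with 2.16, 0.908 and 6.78 CPM in KO tumours and 48.2, 74.9 and 48.4 CPM in WT tumours, and Gria3, a glutamate receptor subunit (-3.20), with 3.31, 1.47 and 7.14 CPM in KO tumours and 36.4, 44.6 and 28.8 CPM in WT tumours. Mthfd1l, a mitochondrial folate enzyme, and Bmp7, a morphogen, had log2 fold changes of -3.93 and -3.27. Ramp3, a receptor-modifying protein, had no count in any KO tumour and 2.19, 9.83 and 3.08 CPM in WT tumours, at least 23.0-fold lower in KO tumours when each KO library is set to 3 counts. Several of these decreases were not called by edgeR without KO tumour 2. Adjusted p was then 0.0791 for Wfdc12, 0.0894 for Wfdc15b, 0.0737 for Mthfd1l, 0.127 for Bmp7 and 0.0965 for Ramp3. Nipal1 (adjusted p = 0.0281) and Gria3 (adjusted p = 0.0238) stayed lower.

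The genotype difference was also measured in water-treated liver. There 1 gene was called (0.00632% of genes tested), Fam102b, lower at 0 and 0 CPM in KO livers, against 5.28 and 3.41 CPM in WT livers, while 1151 had an unadjusted p under 0.05 and DESeq2 called 63 higher and 85 lower, with 2 libraries a group. The interaction, the KO minus WT difference in tumours minus that in liver, was higher for 193 genes (1.22%) and lower for 58 (0.367%). For Elovl3 the KO minus WT log2 fold change was 5.74 in tumours and -1.13 (SE 0.364) in liver, a difference of 6.87 (SE 0.528, adjusted p = 6.7e-06). For Glul it was 3.18 in tumours and -0.42 (SE 0.308) in liver, a difference of 3.59 (adjusted p = 0.0002). For Ahsg it was -1.64 in tumours and 0.11 (SE 0.262) in liver, a difference of -1.75 (adjusted p = 0.0147). For Cyp2b10 the interaction of 7.18 (SE 1.83) did not pass (adjusted p = 0.07), nor did that of Igfals (1.90, adjusted p = 0.0914), Cd163 (4.41, adjusted p = 0.1) or Gpc3 (-5.52, adjusted p = 0.193). Every tumour library had DEN and PB and every liver library plain water, so tumour and treatment cannot be told apart in the interaction.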

How the data were processed

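Total RNA (50 ng a library) was sequenced with a strand-specific QuantSeq 3′ FWD kit, per the labels' protocols, so that a count depends little on transcript length. The authors deposited raw read counts per gene, not normalized. BWA, featureCounts and the mm10 build are named in the submitters' processing notes, while versions, strand setting and treatment of multiply mapped reads are not given. No molecular identifiers are mentioned, so limits from a count of 0 (3 counts) cover counting error only. Within-group pairs of tumour libraries differed by 39.8 to 94.9 in chi-square per degree of freedom, far above sampling noise. Replicates are called biological in the series design.

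Identifiers were given symbols from a gene name table (38872 of 39056; 184 without) and positions from GENCODE M21 on GRCm38. Promoter sequences are RefSeq's, on GRCm38.p6. In R 4.3.3, edgeR 4.0.16 fitted all 10 libraries in 1 quasi-likelihood model of the 4 groups (filterByExpr, TMM, 6 residual degrees of freedom, biological coefficient of variation 71.8%). Calls are at a Benjamini-Hochberg adjusted p under 0.05 over the 15811 genes tested. SE is the log2 fold change divided by the root of its F statistic, and levels are TMM-scaled CPM. The model was also run on counts simulated from its own means and dispersions. That run required only that median estimates had the right sign, and no rate of false calls is taken from it. Alternatives were other scalings and filters, DESeq2 1.42.0, limma 3.58.1 with sample weights, a fit of tumours alone, glmTreat at a fold of 1.5, a replicate block and leaving out each library.

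Members and the 36 gene lists were chosen with earlier results of these data known, and lists are described by counts and medians without a set test. Lists share members, so their counts and medians are not separate from each other. Named genes were called genes without overlap or predicted name that reached 10 CPM in the higher tumour group, the 12 with the largest fold change each way. The rule added up to 3 called members of each list by smallest p, or up to 2 uncalled ones as values, and a fixed set of MLK, CAR, Wnt, proliferation and tumour genes. Alb, Hsd3b5, Slc1a2, Oat, Slc10a1, Ass1, Otc, Asl, Mup2, Ramp3, Krt7, Krt19, Notum, Tbx3, the genes called by other tools, the other promoter genes and remaining members of lists with few calls were named after their values were seen.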

Additional observations from a re-analysis of the deposited data

Results flagged for a closer look

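For 56 of the genes named above the KO minus WT log2 fold change in tumours differed from that in water-treated liver by the interaction term of the edgeR model at an adjusted p under 0.05. Over all genes tested the interaction was higher for 1.22% and lower for 0.367%. Most named genes were chosen by their tumour difference, which is part of this term, so the 56 are no separate result. The values below are that difference, tumours minus liver, on the log2 scale, and no cause was tested.

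Among Mup loci, which are uncertain one by one, it was 7.95 for Mup7, 7.82 for Mup10, 7.75 for Mup22, 7.58 for Mup17, 7.5 for Mup-ps18, 7.42 for Mup-ps17, 7.37 for Mup1, 7.34 for Mup15, 7.22 for Mup12, 7.05 for Mup-ps21 and 6.97 for Mup19. Other male-biased transcripts had 6.87 (Elovl3), 5.86 (Hsd3b5) and 5.51 (Cyp7b1), and the growth hormone axis 2.25 (Ghr) and 2.34 (Igf1).

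In pericentral and periportal genes it was 3.59 for Glul, 3.78 for Cyp2e1, 3.24 for Cyp1a2, 4.03 for Slc1a2, 4.41 for Oat, 3.37 for Tbx3, 3.00 for Aldh1a1, 3.91 for Cyp2f2, 3.95 for G6pc and -1.60 for Hsd17b13. CAR targets had 3.91 (Cyp2c29), 4.59 (Cyp2c37) and 5.92 (Cyp2c54). Conjugating enzymes, esterases and bile acid genes had 4.79 (Sult2a8), 4.10 (Ces3a), 2.97 (Ugt3a2), 3.84 (Slco1b2), 2.37 (Cyp27a1) and 3.17 (Slc10a1). Amino acid enzymes had 3.70 (Prodh), 2.81 (Gnmt) and 3.17 (Bhmt), and Car3 and Thrsp had 5.25 and 3.41.

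Secreted proteins had -1.75 (Ahsg), -1.79 (Apoa1), -1.43 (Alb), -1.60 (Serpina1b) and 1.83 (Serpina3k). Lower values were also found for Lpl (-2.78), Cyp2a4 (-3.82), Trib3 (-3.05), Tstd1 (-2.94) and Krt18 (-1.37). The differences of Krt23 (-9.43), Mthfd1l (-7.30), Bmp7 (-6.71) and Dct (7.74) rest on groups with few or no counts and depend on the prior count. Nfil3, a clock factor not called in tumours, had 3.03, with 23.9 and 11.5 CPM in KO livers and 56.2 and 41.4 CPM in WT livers. Fam102b, without counts in KO liver, had a fitted 7.57 that is no bound.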

How the results depend on the processing

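Counts in tumours (514 higher, 201 lower) stayed within 1.5 times under RLE and upper quartile scaling, a mean of at least 10 CPM and a fit of the tumours alone. The samples share only a number (same-numbered KO and WT tumours correlated at 0.0329, -0.00291 and 0.00831), and a replicate block gave 491 higher and 190 lower in tumours, and 1 higher and 0 lower in liver. Without the filter 435 were lower in tumours (746 higher), 39 and 72 higher and lower in liver, and 432 and 203 in the interaction. DESeq2 called 772 and 346 in tumours, 63 and 85 in liver and 433 and 225 in the interaction. With limma's sample weights 383 were lower in tumours, 0 in liver and 32 in the interaction. The test against a fold change of 1.5, stricter by construction, called 267 and 68 in tumours, 0 lower in liver and 22 lower in the interaction, and the 10 CPM filter 0 in liver. Leaving out 1 library gave 345 to 547 higher and 91 to 269 lower in tumours, 0 to 3 higher and 0 to 6 lower in liver, and 138 to 215 higher and 31 to 72 lower in the interaction. A fit of the tumours without KO tumour 2, chosen after seeing the data, called 312 higher and 163 lower. Krt7, not called (0.32), had -0.54 and 0.76 without KO tumour replicates 3 and 2. Calls of Gpc3, Dusp6, Foxa3, Acat2, Acta2, Folr2, Insr, Ifi27, Nr1h4, Cbr3, Bmp7 and Cfd, among others, ended under 7 or more alternatives, and Glul, Elovl3, Cyp2f2, Ahsg, Lpl and Marco kept theirs in all. Causes were not tested. With 3 libraries a group and low counts for Axin2, Lgr5 and Mki67, moderate differences could be missed.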
